A study of Mus musculus with 4 samples.

Results

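Rab GTPases and SNARE proteins direct the traffic of membrane inside cells, and their transcripts were followed in oligodendrocytes sorted from mouse cortex. The members were all rows of the expression table whose symbol named a Rab gene, a VAMP gene, a syntaxin gene (Stx) or 1 of 4 SNAP genes. They numbered 84 of 35869 rows, with 59 Rab genes and 25 SNARE genes. Cells carrying both O4 and GalC, surface lipids of the oligodendrocyte lineage, were collected by fluorescence-activated sorting at postnatal day 5. The libraries were 2 from wild-type mice (WT) and 2 from mice with the genotype Zfp488KI/KI, labelled Zfp488 KO (KO). Zfp488 encodes a zinc finger protein of the oligodendrocyte lineage. How the allele was made and how many animals stand behind a library is not stated in the labels, so p-values reflect only how far these libraries scatter, and that scatter may be technical.

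Rab proteins are small GTPases that mark individual compartments and recruit motors, tethers and other effectors when bound to GTP. SNARE proteins then drive the fusion itself, as a vesicle SNARE of the VAMP family pairs with syntaxin and SNAP partners on the target membrane. An oligodendrocyte adds large amounts of membrane when it forms myelin. In these cells VAMP3, syntaxin 4 and SNAP23 have been linked to the delivery of myelin proteins to the surface, and RAB35 to the release of vesicles.

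Values are FPKM, read fragments scaled to transcript length and to the mapped total of the library, so levels can be compared between genes. They summed to between 311850 (KO 1) and 341140 (WT 2) per library over all rows. No source used here gives the number of reads, so no counting interval can be attached to a value. Members made up between 0.640% (WT 2) and 0.755% (WT 1) of these sums. Zfp488 itself had 6.61 (WT 1), 5.29 (WT 2), 4.82 (KO 1) and 4.11 FPKM (KO 2), with a log2 difference of -0.34 (SE 0.33, limma adjusted p = 0.95). Sequence that a knock-in leaves in place can still be counted there, so this checks the labels only weakly. The lineage genes Sox10, Olig1 and Olig2 summed to between 1945 and 2243 FPKM in each library, the highest sums of any marker list. The libraries numbered 2 also had higher sums of endothelial and mural, microglial and astrocyte markers than those numbered 1. The 11 endothelial and mural markers summed to 79.1 FPKM in WT 2 and 71.6 FPKM in KO 2, against 0.454 FPKM in WT 1 and 9.90 FPKM in KO 1. Of these, Pecam1 reached at most 0.002 FPKM and Cdh5 0.353 FPKM, both in KO 2. The 10 microglial markers summed to 116.3 and 123.6 FPKM in the libraries numbered 2, against 35.2 and 33.0 FPKM in those numbered 1. The 9 astrocyte markers summed to 170.5 FPKM in WT 2 and 258.1 FPKM in KO 2, against 91.6 in WT 1 and 116.6 in KO 1. Neuronal markers did not follow the library number in WT, with 57.3 FPKM in WT 1 and 53.4 FPKM in WT 2. The part of these cells in the members' values was not tested.

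The machinery of traffic was widely transcribed, and a small number of genes held most of it. By the mean over the 4 libraries, 6 members were at 100 FPKM or more, 30 between 10 and 100, 26 between 1 and 10, and 22 below 1. The members at 100 FPKM or more were all Rab genes. The 10 most abundant members held 58.5% of the summed level. Rab17, Rab25, Rab37 and Stx19 were listed at 0 in every library. Among the 62 members that were tested, those with at least 1 FPKM in at least 2 libraries, Spearman's correlation of levels between libraries lay between 0.923 (WT 1 with WT 2) and 0.974 (KO 1 with KO 2). These are correlations across genes within shared libraries and carry no test. The remaining 22 members did not reach the limit.

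**Figure D1:**
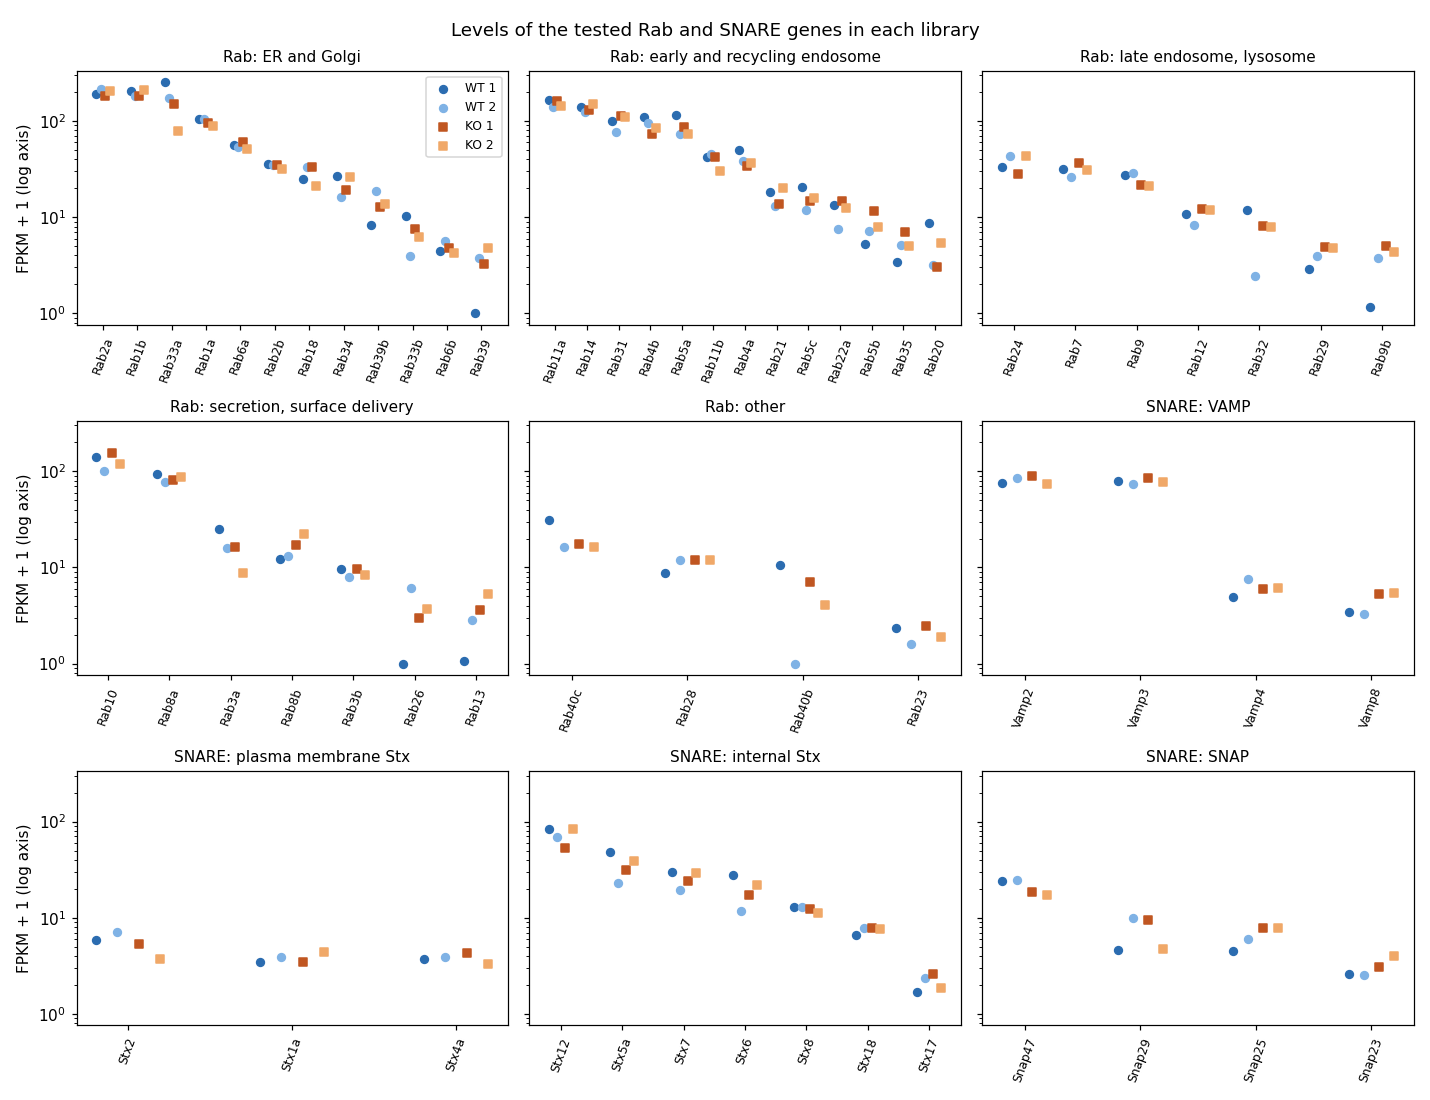
Levels of 61 of the 62 tested members in each of the 4 libraries, as FPKM + 1 on a log axis, in 9 panels by role with genes ordered by mean level. Circles are WT libraries and squares KO libraries; most genes show the 4 points close together, and Rab33a spreads from 252.2 FPKM in WT 1 to 77.3 FPKM in KO 2.

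No member passed the comparison of genotypes. Of the 62 tested members, 0 reached an adjusted p below 0.05 in limma (the smallest was 0.885, for Rab33a), and 0 reached an unadjusted p below 0.05. Over all 10754 tested rows the same counts were 0 and 608, or 0% and 5.65%. Their median log2 fold change of KO over WT, on the log2(FPKM + 1) scale, was 0.085, beside 8.1e-05 over all tested rows. The middle 50% of members by fold change lay between -0.12 and 0.33, and the full range ran from -0.94 (Rab33a) to 1.34 (Rab13). Both KO libraries lay above both WT libraries for 11 members (17.7%), where 16.6% of all tested rows did so. Both lay below for 8 members (12.9%), against 18.3% of all tested rows. The groups overlapped for the other 43 members. With every library rescaled to the same sum, 17 of the 62 lay above and 5 below, beside 21.7% and 13.1% of all tested rows. These shares lay near those of the whole table, with members somewhat more often above and less often below in both settings. This lean was not tested.

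The absence of calls does not show equal levels. For 29 of the 62 members the 95% confidence interval of the log2 fold change lay entirely between -1 and 1. For the others the interval reached beyond at least 1 of these bounds, so a change of that size is not excluded for them. Intervals were narrow for abundant genes, such as Rab2a (-0.44 to 0.30) and Rab1b (-0.37 to 0.40). They were wide where a library stood apart, as for Rab40b (-2.26 to 3.70). The sample held bulk RNA, so fewer cells of a type and less RNA per cell cannot be told apart.

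**Figure D2:**
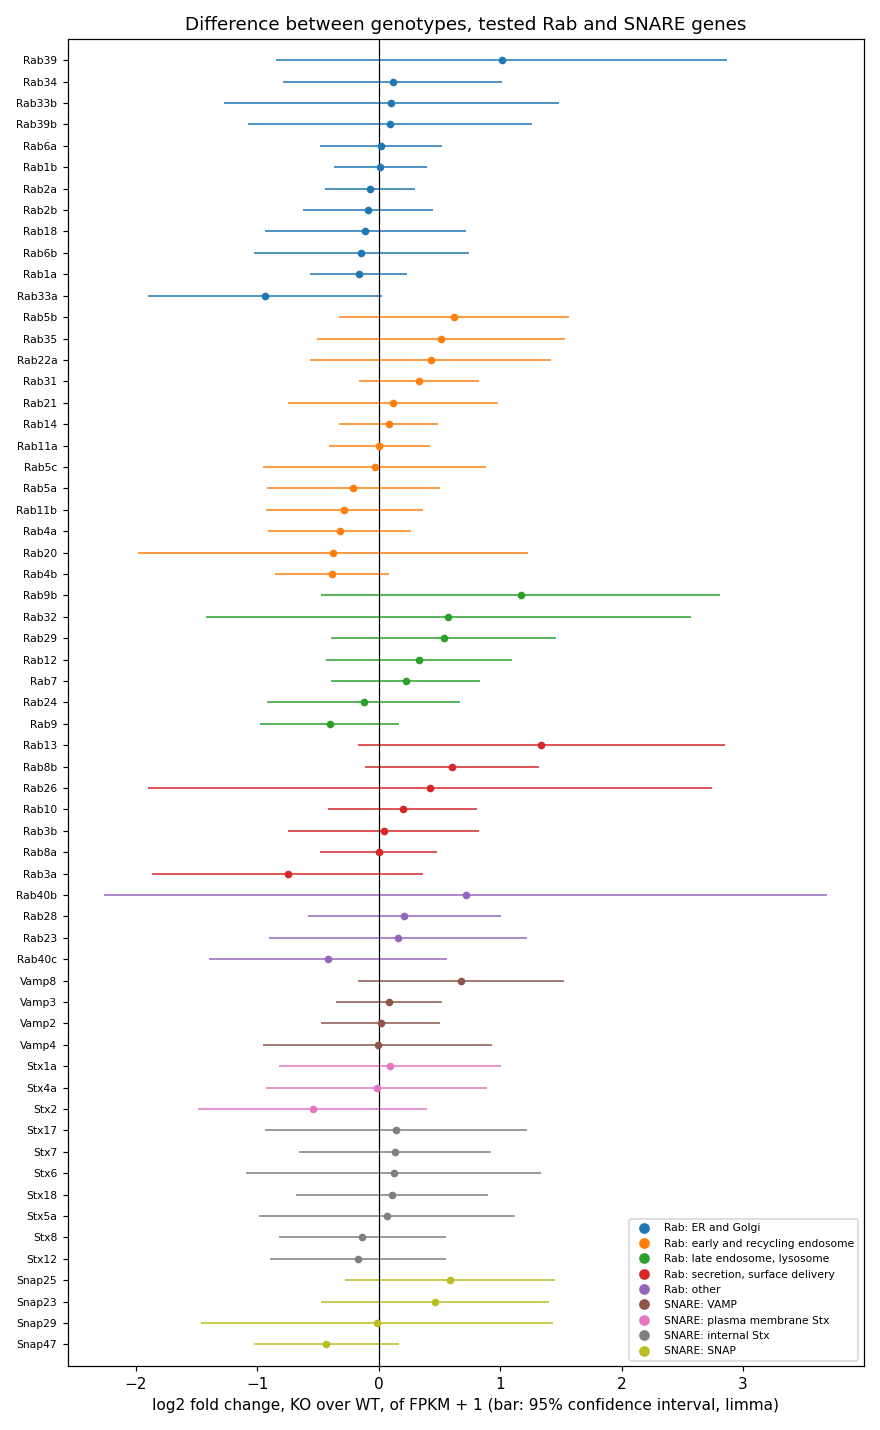
Log2 fold change of KO over WT for 61 of the 62 tested members, with points coloured by role and bars showing the 95% confidence interval from limma. Every interval includes 0; that of Rab33a, from -1.90 to 0.02, comes closest to leaving it out.

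Among Rab genes of the endoplasmic reticulum and Golgi, 12 of 16 were tested, with both KO libraries above WT for 0 and below for 2 (median log2 fold change -0.03). Rab2a, which acts between the endoplasmic reticulum and the Golgi, was the most abundant member of all. It was at 191.9 and 213.9 FPKM in WT against 181.2 and 204.7 FPKM in KO. Rab1b, which drives export from the endoplasmic reticulum, measured 204.9 and 183.2 FPKM in the WT libraries, and 182.2 and 210.0 in the KO libraries. The groups overlapped for both genes, and their log2 differences were -0.07 (SE 0.14) and 0.01 (SE 0.15). Rab1a, its close relative, was at 103.2 FPKM in each WT library and at 95.1 and 88.8 FPKM in KO. Both KO values lay just below WT (log2 difference -0.17, SE 0.15, limma adjusted p = 0.949). Rab39 was listed at 0 and 2.80 FPKM in WT against 2.25 and 3.76 FPKM in KO, and its log2 difference of 1.01 (SE 0.72) rests on the 0 in WT 1, which may be a failed estimate: without WT replicate 1 it was 0.05.

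Rab33a had the smallest p of the members. It encodes a Golgi-associated Rab known mainly from brain and immune cells. Its WT levels were 252.2 FPKM (library 1) and 171.8 FPKM (library 2), and its KO levels 151.1 FPKM (library 1) and 77.3 FPKM (library 2). The groups did not overlap, and KO 2 was the lowest of all. The WT mean of 212.0 ± 56.8 FPKM stood against a KO mean of 114.2 ± 52.2 FPKM (SD, n = 2 each), 46.2% lower, with a log2 difference of -0.94 (SE 0.37, limma unadjusted p = 0.054, adjusted p = 0.885). Between libraries of the same number, the log2 difference was -0.74 for number 1 and -1.14 for number 2. Without KO replicate 2 it was -0.46, and without KO replicate 1 it was -1.42. In the GRCm38 annotation the gene lies on chromosome X from 48519285 to 48530232 on the plus strand, in 2 exons, and no other annotated gene shares its exons. Its close relative Rab33b, which takes part in autophagosome formation, was far less abundant, at 9.20 and 2.95 FPKM in WT against 6.53 and 5.18 FPKM in KO.

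The Rab33a values followed those of a myelin gene across the 4 libraries, a likeness that was looked for after the values were seen. Mbp, which encodes myelin basic protein, had WT levels of 103.0 FPKM (library 1) and 74.1 FPKM (library 2), beside KO levels of 65.0 FPKM (library 1) and 29.6 FPKM (library 2). The ratio of Mbp to Rab33a had a coefficient of variation of 5.42% over these libraries. For the ratio of Rab3a, described below, to Rab33a it was 6.68%. All 3 genes were highest in WT 1 and lowest in KO 2. Summed over 10 myelin markers the level was 893.5 and 561.2 FPKM in WT against 602.7 and 289.9 FPKM in KO, so those groups overlapped in sum, to which Cnp gave the most. By gene, 6 of the 10 lay below WT in both KO libraries, where 18.3% of all tested rows did, with a median log2 fold change of -0.97. Of 6 markers of oligodendrocyte precursors, 4 lay above in both, where 16.6% of all tested rows did (median 0.43). The part of cell maturity in the Rab33a and Rab3a values was not tested. All these genes were read in the same 4 libraries and share their depth, so this is a description without a test.

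**Figure D3:**
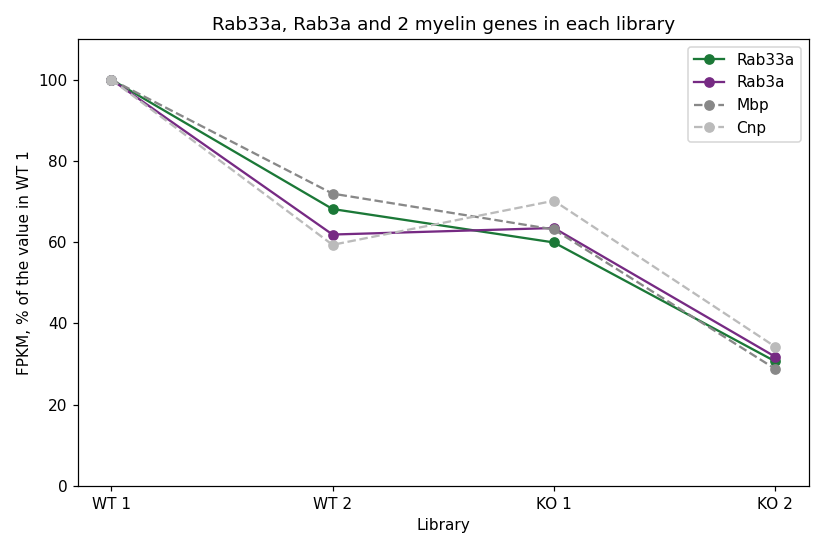
FPKM of Rab33a, Rab3a, Mbp and Cnp, which encodes a myelin enzyme, in each library, as a percentage of the value in WT 1. Rab33a and Mbp run close, at 68.1% and 71.9% in WT 2, 59.9% and 63.1% in KO 1, and 30.6% and 28.8% in KO 2.

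The start regions of Rab33a and Rab3a, the members that ran close to each other and to Mbp, are printed below, from RefSeq on GRCm38.p6, each from 250 bases before to 50 bases after the annotated start. Capitals mark matches to 6 motifs searched on both strands, none of which overlap in these sequences. The motifs were the GC box GGGCGG, the CCAAT box CCAAT, the cAMP response element TGACGTCA, the E-boxes CACGTG and CAGNTG, and the Sox core ACAAAG. RefSeq lists 2 start regions for Rab3a, and the first is shown. Rab33a lies at chrX:48519035-48519334 and Rab3a at chr8:70754453-70754752, both on the plus strand.
Rab33a: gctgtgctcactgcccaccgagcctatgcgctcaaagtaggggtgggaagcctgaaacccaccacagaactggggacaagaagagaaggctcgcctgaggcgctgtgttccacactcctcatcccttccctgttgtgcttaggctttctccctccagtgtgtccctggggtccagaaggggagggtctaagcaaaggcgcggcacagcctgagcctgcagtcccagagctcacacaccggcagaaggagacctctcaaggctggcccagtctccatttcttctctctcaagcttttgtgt
Rab3a: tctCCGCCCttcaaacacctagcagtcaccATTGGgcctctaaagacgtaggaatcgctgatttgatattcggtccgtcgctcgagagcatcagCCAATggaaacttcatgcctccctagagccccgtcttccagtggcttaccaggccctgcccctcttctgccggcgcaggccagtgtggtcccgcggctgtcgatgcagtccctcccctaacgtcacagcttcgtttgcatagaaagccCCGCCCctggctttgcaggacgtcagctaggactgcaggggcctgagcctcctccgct
The Rab33a window held 0 matches, 7 CpG and 58.7% G and C. The printed Rab3a window held 2 GC boxes, 2 CCAAT boxes and 18 CpG. The second Rab3a region, not printed, differed, with 2 CAGNTG E-boxes, no other match and 22 CpG. The table has a start region for 69 of the 84 members, 86 in all because some genes have several. In the 63 regions of tested members the GC box was found in 71.4%, against 63.4% of the 9588 regions of all tested rows and 35.7% of all 32851 regions. The CCAAT box was in 49.2% (39.1% and 37.4%), CACGTG in 11.1% (9.94% and 7.15%) and CAGNTG in 46.0% (43.5% and 51.4%). The Sox core was in 6.35% (13.6% and 18.7%) and the cAMP response element in 1.59% (3.17% and 1.79%). Tested members had a median of 23 CpG in this window, beside 21 for all tested rows.

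Rab genes of early and recycling endosomes were the other abundant group, with 13 of 16 tested, 2 above and 2 below (median 0.01). Rab11a, which governs return of endosomal cargo to the surface, read 164.4 and 138.9 FPKM under WT, with 160.3 and 143.4 under KO. Rab14, between the Golgi and endosomes, had WT levels of 138.8 and 124.0 FPKM beside KO levels of 130.2 and 148.5 FPKM. Both genes overlapped between genotypes, with log2 differences of 0.01 (SE 0.16) and 0.08 (SE 0.16). Rab5a, the Rab of early endosomes, was at 115.9 and 71.8 FPKM in WT against 85.3 and 72.8 FPKM in KO, again overlapping (-0.21, SE 0.28). Rab31, found on the trans-Golgi network and endosomes of oligodendrocytes, measured 100.3 and 76.9 FPKM in the WT libraries, and 111.8 and 110 in the KO libraries. Both KO values lay above WT, and the log2 difference was 0.33 (SE 0.19, adjusted p = 0.915 by limma). It was 0.14 without WT replicate 2 and 0.52 without WT replicate 1. The Rab4 pair of rapid recycling lay the other way. Rab4b read 109.3 and 95.1 FPKM under WT, with 71.9 and 84.5 under KO (-0.38, SE 0.18), and Rab4a had WT levels of 49.0 and 37.7 FPKM beside KO levels of 32.9 and 35.5 FPKM (-0.32, SE 0.23). Rab5b, a less abundant Rab5, was at 4.32 and 6.25 FPKM in WT against 10.5 and 6.90 FPKM in KO (0.62, SE 0.37). Rab35 measured 2.43 and 4.09 FPKM in the WT libraries, and 5.997 and 4.07 in the KO libraries, so its groups overlapped by a narrow margin (0.51, SE 0.40).

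Rab genes of late endosomes, lysosomes and related organelles were tested for 7 of 9, with 3 above and 1 below (median 0.33). Rab7, which controls the passage to lysosomes, read 30.9 and 25.2 FPKM under WT, with 35.6 and 30.1 under KO (0.22, SE 0.24). Rab24, linked to autophagy, had WT levels of 32.7 and 42.2 FPKM beside KO levels of 26.9 and 42.8 FPKM (-0.13, SE 0.31). Neither separated the genotypes. Rab9, which returns receptors from late endosomes to the Golgi, was at 26.8 and 27.8 FPKM in WT against 20.8 and 19.98 FPKM in KO (-0.40, SE 0.22), with KO below. Its relative Rab9b measured 0.164 and 2.76 FPKM in the WT libraries, and 4.06 and 3.38 in the KO libraries. Both KO values were higher there, and the log2 difference of 1.17 (SE 0.64) came mainly from WT 1: it was 2.12 between libraries numbered 1 and 0.22 between those numbered 2. Rab32, a Rab of lysosome-related organelles, read 10.8 and 1.47 FPKM under WT, with 7.16 and 6.89 under KO, so the widest gap lay within WT. Rab12 (0.33, SE 0.30) and Rab29 (0.53, SE 0.36) lay higher in both KO libraries.

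Rab genes of secretion and surface delivery were tested for 7 of 13, with 2 above and 0 below (median 0.20). Rab10, which carries membrane to the surface, had WT levels of 140.6 and 100.7 FPKM beside KO levels of 155.5 and 119.6 FPKM (0.20, SE 0.24). Rab8a, of polarised exocytosis, was at 92.6 and 75.6 FPKM in WT against 80.1 and 87.3 FPKM in KO. Its log2 difference was -0.00075 (SE 0.19, 95% confidence interval -0.48 to 0.48), and its sign turned with the libraries rescaled to the same sum. Rab8b, less abundant, measured 11.2 and 12.2 FPKM in the WT libraries, and 16.0 and 21.1 in the KO libraries, with KO above (0.60, SE 0.28, limma adjusted p = 0.902). Rab3a, the Rab of regulated secretion, read 24.2 and 14.9 FPKM under WT, with 15.3 and 7.68 under KO. WT 2 and KO 1 were close, so the groups overlapped, and the log2 difference was -0.75 (SE 0.43). Without KO replicate 2 it was -0.29, and without KO replicate 1 it was -1.21. Rab3b had WT levels of 8.56 and 6.93 FPKM beside KO levels of 8.68 and 7.30 FPKM, with no such gradient. Rab13, a Rab of surface delivery and cell junctions, had the largest fold change of the members. It was at 0.070 and 1.82 FPKM in WT against 2.63 and 4.31 FPKM in KO (1.34, SE 0.59, adjusted p = 0.897 by limma). These are low values with WT 1 near 0: the log2 difference was 0.64 without WT replicate 1, 2.04 without WT replicate 2 and 2.60 with a pseudocount of 0.1. Rab27b, a Rab of exosome and granule release, was below the limit for testing at 0.556 and 0.442 FPKM in WT against 1.23 and 0.738 FPKM in KO. Rab27a was lower still, at 0.348 and 0.333 FPKM in WT against 0.183 and 0.012 FPKM in KO.

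The remaining Rab genes were tested for 4 of 5, and all 4 overlapped between genotypes. Rab40c, which recruits a ubiquitin ligase, measured 30.3 and 15.3 FPKM in the WT libraries, and 16.3 and 15.4 in the KO libraries (-0.42, SE 0.38), so WT 1 alone stood apart. Rab40b was listed at 9.65 and 0 FPKM in WT against 6.10 and 3.05 FPKM in KO. Rab28, linked to cilia, read 7.71 and 11.1 FPKM under WT, with 10.9 and 10.8 under KO (0.21, SE 0.31).

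Vesicle SNAREs were dominated by a pair of near-equal genes. Vamp2 had WT levels of 73.9 and 84.9 FPKM beside KO levels of 87.7 and 73.2 FPKM. Vamp3 was at 78.2 and 72.0 FPKM in WT against 83.3 and 76.3 FPKM in KO. Both encode vesicle SNAREs of fusion at the plasma membrane, and their genotypes overlapped, with log2 differences of 0.02 (SE 0.19, 95% confidence interval -0.47 to 0.51) and 0.09 (SE 0.17, -0.35 to 0.52). Vamp2 made up between 48.6% and 54.1% of the pair's sum in each library. Vamp4, of the trans-Golgi network, measured 3.93 and 6.59 FPKM in the WT libraries, and 5.02 and 5.17 in the KO libraries. Vamp8, a SNARE of late endosomes and lysosomes, was the sole VAMP gene among the 4 tested to separate. It read 2.46 and 2.27 FPKM under WT, with 4.31 and 4.45 under KO, 1.85 times as high by the means (0.68, SE 0.33, limma adjusted p = 0.914). Vamp1 and Vamp5 were near 0 except in KO 2, at 1.74 and 0.889 FPKM.

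Plasma membrane syntaxins were low: the 7 genes together summed to between 10.9 FPKM (WT 1) and 13.4 FPKM (WT 2). Stx4a, the mouse symbol for syntaxin 4, had WT levels of 2.69 and 2.93 FPKM beside KO levels of 3.25 and 2.33 FPKM (-0.02, SE 0.35). Stx3 was at 0.174 and 0.704 FPKM in WT against 0.308 and 0.279 FPKM in KO, below the limit for testing. Stx2 measured 4.85 and 6.08 FPKM in the WT libraries, and 4.28 and 2.69 in the KO libraries, with KO below (-0.55, SE 0.37). Stx1a, a syntaxin of synaptic release, read 2.43 and 2.90 FPKM under WT, with 2.48 and 3.39 under KO (0.10, SE 0.36), with the groups overlapping. Stx4a shares exon sequence with a gene on the opposite strand, and the strand setting is not given, so reads cannot be told apart there.

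Syntaxins of internal membranes summed to between 139.1 FPKM (WT 2) and 202.9 FPKM (WT 1). Of 8, 7 were tested, with 0 above and 1 below (Stx8; median 0.11). Stx12, of recycling endosomes, was at 81.9 and 67.6 FPKM in WT against 52.3 and 83.6 FPKM in KO (-0.17, SE 0.28). Stx5a, of the Golgi, measured 46.98 and 21.7 FPKM in the WT libraries, and 30.1 and 37.6 in the KO libraries (0.07, SE 0.41). The widest gap lay within KO for Stx12 and within WT for Stx5a. Stx17, of autophagosomes, read 0.680 and 1.38 FPKM under WT, with 1.62 and 0.859 under KO (0.14, SE 0.42).

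The 4 SNAP genes were all tested, with 2 above and 1 below (median 0.22). Snap47, a widely expressed member without a membrane anchor, was the most abundant, at 23.3 and 23.4 FPKM in WT against 17.7 and 16.4 FPKM in KO. The WT libraries were within 0.1 FPKM of each other and both KO libraries lay below them (-0.43, SE 0.23, adjusted p = 0.914 by limma). Snap25, the SNAP protein of synaptic release, had WT levels of 3.46 and 5.06 FPKM beside KO levels of 6.83 and 6.82 FPKM (0.59, SE 0.34). Snap23, its counterpart outside neurons, was at 1.60 and 1.52 FPKM in WT against 2.09 and 3.03 FPKM in KO (0.46, SE 0.37). Both lay higher in KO. Snap29, which acts in autophagy, measured 3.60 and 8.91 FPKM in the WT libraries, and 8.49 and 3.69 in the KO libraries, with the gap inside each genotype (-0.02, SE 0.56).

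The summed level of neuronal markers lay higher in KO, beside Snap25. The 15 neuronal markers summed to 57.3 and 53.4 FPKM in WT against 76.3 and 81.2 FPKM in KO. Of the 6 tested markers, 2 lay above WT in both KO libraries, where 16.6% of all tested rows did. Stmn2 read 1.35 and 0.503 FPKM under WT, with 3.67 and 6.57 under KO (log2 difference 1.66, SE 0.45, adjusted p = 0.859 by limma). Syp, which encodes a synaptic vesicle protein and held the largest part of the sum in WT 1, KO 1 and KO 2, had 28.7 and 13.9 FPKM in WT beside 38.0 and 33.6 FPKM in KO, with KO above. Of the other abundant markers, Syn1 lay between 12.4 and 19.5 FPKM and Nefl between 6.82 and 12.9 FPKM, both overlapping. Rbfox3 (at most 0.084 FPKM) and Syt1 were low in every library. Syt1, below the limit for testing, was at 0.316 and 0.354 FPKM in WT against 0.225 and 0.251 FPKM in KO, with KO below. The part of neuronal RNA in the values of Snap25 was not tested.

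Within small families of related genes, the share of each gene in the summed level removes what scales all genes of a library alike. It does not remove the trend with transcript length described below. The longest annotated transcript is 4880 bp for Snap25 and 1896 bp for Snap47. That Snap25 transcript has 3 exons and 0 coding bases, so its length need not be that of the RNA measured. Shares of a family are parts of the same sum, so they do not move independently. The Rab2, Rab4 and Vamp2 and Vamp3 shares hardly moved: Rab2a held 84.2% to 87.0% of the Rab2 sum, and Rab4b held 68.6% to 71.6% of the Rab4 sum. Rab8b held 10.8% and 13.9% of the Rab8 sum in WT, and 16.6% and 19.4% in KO. Snap25 held 10.8% and 13.02% of the SNAP sum in WT, and 19.5% and 22.8% in KO. In the same libraries Snap47 held 72.9% and 60.2%, then 50.4% and 54.8%. Rab5a held 82.9% and 80.8% of the Rab5 sum in WT, and 78.0% and 77.0% in KO. The groups did not overlap for these 4 genes. The same held for other genes of the compared families, among them Rab3a, Rab3b, Rab5b, Rab9, Rab9b and Rab33a. Such shares were not computed over the whole table, so no background stands beside this. The families were picked after the levels were seen, and an exact permutation test of 2 against 2 libraries cannot give a two-sided p below 0.333, so these shares carry no test.

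**Figure D4:**
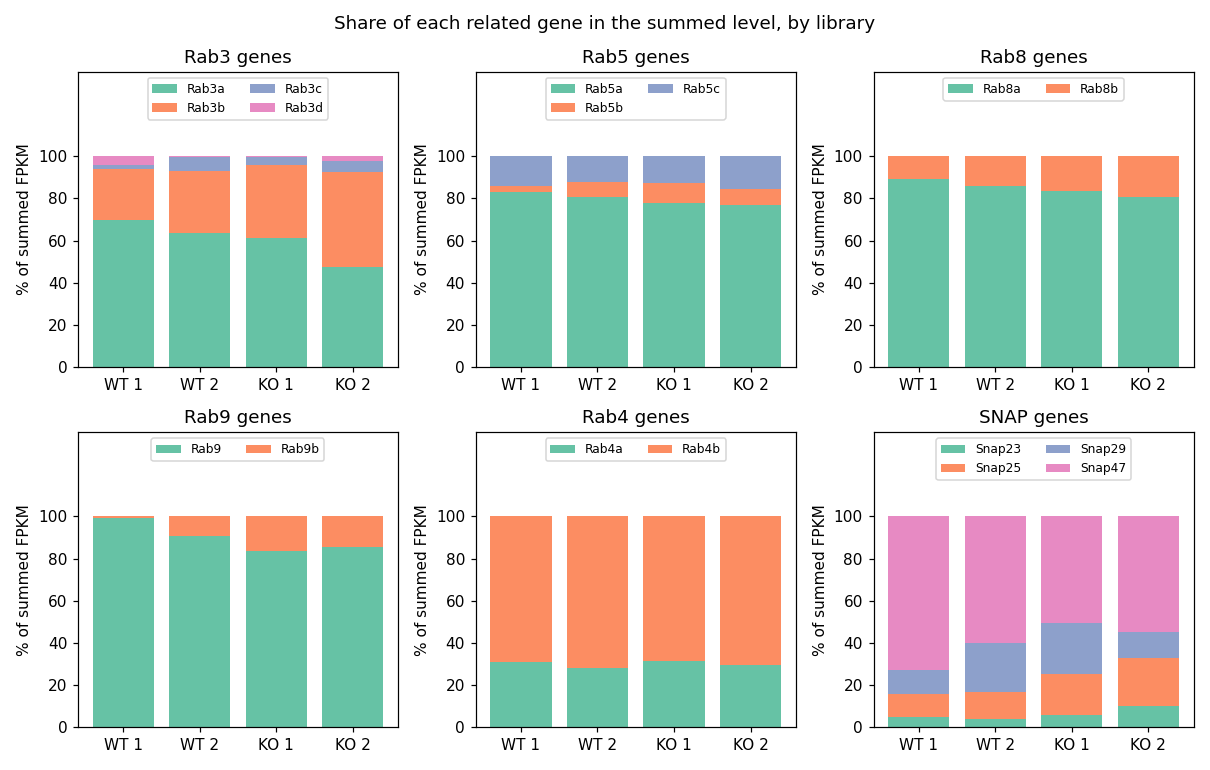
Share of each gene in the summed FPKM of its family, in percent, for 6 families and the 4 libraries. The Snap25 segment is 10.8% and 13.02% in WT and 19.5% and 22.8% in KO, and the Rab3a segment runs from 69.5% in WT 1 to 47.5% in KO 2.

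Transcript length ran with the direction of the members' differences. Length here is that of the longest annotated transcript. For some members, such as Rab4b, Rab5a, Rab14 and Snap25, that transcript has 0 coding bases, so it is a rough measure. The 8 members with both KO libraries below had a median longest transcript of 1672 bp, and the 11 with both above had 3180 bp. For the 16 members of at most 2000 bp the median log2 fold change was -0.08, and for the 46 longer members 0.10. Over all tested rows with a length the medians were -0.13 and 0.06, so the same split ran through the whole table. Its part in single members was not tested, apart from a fit with the trends of level and length removed, in which the members' median was 0.04 and Rab33a differed by -0.70.

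The other genes of the pathway gave a like picture. Of 179 listed regulators and partners outside the Rab and SNARE families named here, 116 were tested, 0 passed by limma and 5 reached an unadjusted p below 0.05, with KO higher for 1 and lower for 4, where 5.65% of all tested rows reached it. The groups separated with KO above for 26 and below for 18, beside 16.6% and 18.3% of all tested rows, and the median log2 fold change was 0.01. The lowest median of the 6 lists was that of the other SNAREs (-0.38), where both KO libraries lay below for 7 of 11 genes and above for 1. The same shares of all tested rows stand beside these counts, and the list itself carries no test. Bnip1 had WT levels of 23.4 and 19.98 FPKM beside KO levels of 8.57 and 13.3 FPKM (-0.95, SE 0.32, limma unadjusted p = 0.030, adjusted p = 0.859). Use1 was at 22.6 and 21.1 FPKM in WT against 13.5 and 12.97 FPKM in KO (-0.68, SE 0.24, limma unadjusted p = 0.037, adjusted p = 0.861). Both encode SNAREs of return traffic to the endoplasmic reticulum, where their partner Stx18 measured 5.61 and 6.88 FPKM in the WT libraries, and 6.86 and 6.72 in the KO libraries, overlapping (0.11, SE 0.31).

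Of 7 tested genes of Rab prenylation and recycling, 1 lay above and 0 below (median -0.08). Rabif, which releases nucleotide from Rab proteins, read 24.6 and 25.6 FPKM under WT, with 36.7 and 35.4 under KO (0.50, SE 0.21). Rabggta, a subunit of the prenylating enzyme, had WT levels of 22.3 and 12.2 FPKM beside KO levels of 14.8 and 8.20 FPKM (-0.54, SE 0.44). Of 25 exchange factors and GTPase activators, 5 lay above and 3 below (median 0.08). Hps4, part of the exchange factor for RAB32 and RAB38, was at 1.99 and 3.13 FPKM in WT against 1.13 and 0.834 FPKM in KO, and Rabgef1, which activates RAB5, measured 0.508 and 0.672 FPKM in the WT libraries, and 1.91 and 1.19 in the KO libraries. Of 19 Rab effectors 5 lay above and 2 below (median -0.01). Plekhm1, a RAB7 effector of lysosome fusion, read 1.86 and 1.97 FPKM under WT, with 4.20 and 4.43 under KO (0.87, SE 0.33), and Plekhm2 had WT levels of 0.041 and 1.05 FPKM beside KO levels of 1.02 and 1.31 FPKM.

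Factors of SNARE assembly and disassembly were above for 3 and below for 1 of 14 (median 0.12). Stxbp3, which binds syntaxin 4, measured 42.3 and 26.1 FPKM in the WT libraries, and 24.8 and 18.7 in the KO libraries (-0.60, SE 0.33). Of 40 tethering genes 11 lay above and 5 below (median 0.10). Exoc8, an exocyst subunit, read 0.351 and 1.003 FPKM under WT, with 1.69 and 3.97 under KO, and Cog2, of the Golgi tether COG, had WT levels of 1.26 and 10.2 FPKM beside KO levels of 9.07 and 9.53 FPKM. These values, too, did not pass the test.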

How the data were processed

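RNA was measured in 4 libraries, 2 per genotype, of oligodendrocytes sorted from cortex. Each library has a deposited column of FPKM, per the file headers; the submitters' processing notes name TopHat and mm10. The program behind the FPKM, the annotation, the strand setting and the treatment of reads that fit several genes are not stated there. Values were analysed as log2(FPKM + 1), without rescaling. Rows with at least 1 FPKM in at least 2 libraries entered a genotype model in limma (version 3.58.1, under R version 4.3.3), with empirical Bayes moderation along the mean-variance trend. Two-sided p-values were adjusted over all 10754 tested rows after Benjamini and Hochberg. The script was tested on simulated data. SE and confidence intervals come from this fit.

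The members, role groups and lists were chosen with earlier results of these data known. Within each role group the 2 most abundant and the 2 most different tested members are named, with members linked to oligodendrocytes, and the 2 most different genes of each pathway list. Rab1a, Rab4a, Rab4b, Rab8b, Rab9, Rab12, Rab29, Stx8 and the low or related genes beside a named member were added after their values were seen, as were the ratios to Rab33a, the printed start regions and the comparison by transcript length. No row carried the symbol Vamp7, so that gene was not analysed here. In addition, 1 tested member and some genes beside the members are counted but not reported by name. Lengths, coordinates and overlaps follow GENCODE M21 (GRCm38), where all 84 members were found and 26 shared exon sequence with another gene, 20 of them on the opposite strand, among them Rab3a, Rab7, Rab10, Rab24, Snap29 and Snap47.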

Additional observations from a re-analysis of the deposited data

How the results depend on the processing

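No member passed by limma under any of the 12 alternatives, with a smallest adjusted p of 0.413, and the members' median log2 fold change lay between -0.0064 and 0.18. With the libraries rescaled to the same sum (TPM), 17 members lay above and 5 below in both KO libraries; the rows with an unadjusted p under 0.05 were then 395 higher and 191 lower, against 302 and 306. Leaving out a library makes separation easier, and the counts were 18 to 31 of the 62 members above and 13 to 23 below. Over all 10754 tested rows they were 3281 to 3820 above and 3518 to 3939 below. The members' median then ran from -0.0064 (without WT replicate 2) to 0.13. A fit with the replicate number as a block gave 0 called members and a median of 0.085, with 1025 rows at an unadjusted p under 0.05 against 608. Members at an unadjusted p under 0.05 by limma, 0 of 62 as reported, were 3 with the block. They were 3 of 80 without the filter on low values, where 1123 of all 22897 rows reached it. Without the mean-variance trend 1 member did, where 537 of all 10754 rows did. Fits with a library left out are not counted here, as 1 group then holds 1 library. Deviations of same-numbered libraries correlated at 0.29, which with 2 pairs is a hint only. The level and transcript length correction was chosen after seeing the data. Of 35 named members tested, 16 kept their sign under every alternative and 19 did not; the cause was not tested. Signs turned for Rab2a under TPM (0.026), quantile normalization (0.10), removal of the level trend (0.079) and of both trends (0.096), and for Rab8a (0.098, 0.085, 0.10 and 0.024). They turned for Snap29 (0.069) and Stx4a (0.057) under TPM, and for Stx17 (-0.050) under quantile normalization. With 1 library left out, the log2 difference ran from -0.043 to 0.43 for Rab10, -0.12 to 0.13 for Rab11a, -0.011 to 0.18 for Rab14 and -0.088 to 0.12 for Rab1b. It ran from -0.45 to 0.20 for Rab24, -0.026 to 0.45 for Rab28, -0.16 to 0.015 for Rab2a, -0.55 to 1.70 for Rab32, -0.99 to 2.42 for Rab40b and -0.89 to 0.053 for Rab40c. It ran from -0.55 to 0.13 for Rab5a, -0.15 to 0.14 for Rab8a, -0.57 to 0.54 for Snap29, -0.50 to 0.17 for Stx12 and -0.11 to 0.39 for Stx17. For Stx1a it was -0.070 to 0.26, for Stx4a -0.19 to 0.16, for Stx5a -0.47 to 0.61 and for Vamp2 -0.11 to 0.15. Among members that kept their sign, the range was 0.35 (without KO replicate 1) to 0.88 for Rab5b, 0.37 (without WT replicate 1) to 0.81 for Snap25, 0.23 (without WT replicate 1) to 0.80 for Rab35 and 0.27 (without KO replicate 2) to 0.65 for Snap23. It was -0.80 to -0.29 (without KO replicate 2) for Stx2, 0.32 (without WT replicate 1) to 2.02 for Rab9b, 0.081 (without WT replicate 2) to 0.36 for Rab7 and 0.024 (without KO replicate 1) to 0.15 for Vamp3. A pseudocount of 0.1 gave 2.60 for Rab13, 2.48 for Rab39 and 2.13 for Rab9b, genes with a WT value at or near 0. In these fits the lone library of a group is assumed to vary like the others. Total reads are unknown, so precision rests on 2 libraries a group.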
